A study of Mus musculus with 6 samples.

Results

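This account follows 35 genes of cholesterol and fatty acid synthesis and handling among the 24191 genes of the deposited table. They were taken by GENCODE M21 symbol from a list of sterol and fatty acid genes, and all 35 were in the table. The study sequenced polyadenylated RNA of mouse embryonic stem cells. Of its 6 libraries, 3 came from wild-type (WT) and 3 from Mettl5 -/- cells, called knockout here. METTL5 methylates an adenosine of the small-subunit ribosomal RNA, and the series asked how its loss bears on pluripotency and developmental programmes. All 6 shared the J1 strain and 7 days of culture in Serum Lif, where the cytokine LIF keeps the cells undifferentiated. No source used here gives the altered part of Mettl5, the number of clones or whether replicates were separate cultures. The p-values therefore reflect only how these libraries vary, and that variation may be technical.

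Cells make cholesterol from acetyl-CoA. The mevalonate segment builds farnesyl diphosphate, squalene is formed from it and closed to lanosterol, and a series of oxidoreductases and isomerases turns lanosterol into cholesterol. The transcription factors SREBP1 and SREBP2 (genes Srebf1 and Srebf2) switch on these enzymes when sterols are scarce. SCAP escorts them from the endoplasmic reticulum to the Golgi for cleavage, and the INSIG proteins hold SCAP back when sterols are plentiful. SREBP1 also drives fatty acid synthesis, which starts from the same acetyl-CoA, while the ABC transporters that export sterols are targets of the oxysterol receptors LXR.

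Depth estimated from the value steps was 38540000 to 59640000 fragments per library. The levels below are on the deposited TPM scale, which allows comparison between genes. Each log2 fold change is the knockout mean minus the WT mean of log2(scaled reads + 1). Its standard error (SE) and Benjamini-Hochberg adjusted p come from limma over 24183 genes, and a gene was called at 0.05. The 2 columns were scaled differently, so a small log2 fold change can differ in sign from the levels beside it. Mettl5 itself was at 50.3, 48.6 and 48.7 in WT and at 3.65, 3.58 and 3.32 in knockout libraries (log2 fold change -3.73). All 8 embryonic stem cell markers examined were present, with 1 higher and 6 lower and a sum between 5374 and 5771 in WT and between 4909 and 5352 in knockout libraries. For feeder fibroblast markers the sum lay between 18.4 and 20.8 in WT and between 48.5 and 49.8 in knockout libraries, with 13 of 15 higher and 2 lower, and Lum was listed at 0 in WT library 3. For visceral endoderm markers it lay between 49.9 and 51.2 in WT and between 19.9 and 21.1 in knockout libraries, with 12 of 15 lower and 1 higher, and Fgb was listed at 0 in all 3 knockout libraries. For macrophage markers it lay between 9.58 and 10.995 in WT and between 12.6 and 13.9 in knockout libraries, with 3 of 5 higher. Of these 5, 4 stayed under 1 in every library, so the macrophage sum came mostly from 1 gene. The same held for 5 of the 15 fibroblast and 4 of the 15 visceral endoderm markers, which stayed under 1. Only markers present in the deposited table are counted, and some planned macrophage and visceral endoderm markers are not among them. Beside these counts, 33.6% of all genes tested were called higher and 28.9% lower. In bulk RNA a change in the share of cells of a type and a change of RNA per cell cannot be told apart, and the part of these cell types in the results below was not tested.

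All 35 genes passed the filter on low values, the lowest value being 165 scaled reads. Of them, 19 were higher in the knockout, 11 were lower and 5 were not called, against 33.6% of all genes tested called higher and 28.9% called lower (62.6% in either direction). The share of called genes grows with the level. Among the 12034 genes with a mean at least as high as that of the lowest of the 35 genes, Scap, 47.7% were higher and 32.3% lower (79.9% in either direction). Read against those shares, 54.3% and 31.4% of the 35 genes are near the background. The enzymes of the sterol chain, from Acat2 to Dhcr7, were less even, with 12 of 18 higher (66.7%) and 4 lower (22.2%). Their median log2 fold change was 0.33, that of the 35 genes 0.18 and that of all genes tested 0.00. The median of the 7 fatty acid synthesis genes was -0.34, 2 being higher and 4 lower. Of these 7, 3 are on chromosome 11, where most genes tested were lower, and the other 4 (2 higher, 2 lower) had a median of 0.01. The summed level of those 4 was 133 ± 2.2 in WT and 189 ± 0.835 in knockout libraries (SD, n = 3). Most of that sum and its rise came from Scd2, at a mean of 84.0 in WT and 142 in knockout libraries. Elovl6 was also higher, and Scd1 and Acss2 were lower. With libraries rescaled to equal totals, which moved the median of all genes to -0.15, the sterol chain had 12 higher and 5 lower and the fatty acid genes 2 higher and 5 lower. At equal totals 17 of the 35 genes were higher and 14 lower, beside 26.1% and 37.8% of all genes (63.9% in either direction). On the TPM scale the WT and knockout libraries did not overlap for 17 genes that were higher and 12 that were lower, beside 32.5% and 35.7% of all genes tested (68.1% in either direction). A called log2 fold change of at least 1 was found for 3 genes that were higher (Sc5d, Ebp and Npc2), beside 11.4% of all genes, and for 2 that were lower (Abcg1 and Acss2), beside 9.93%. Replicates lay close together, with a median coefficient of variation over the 35 genes of 2.78% in WT and 1.90% in knockout libraries.

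**Figure D1:**
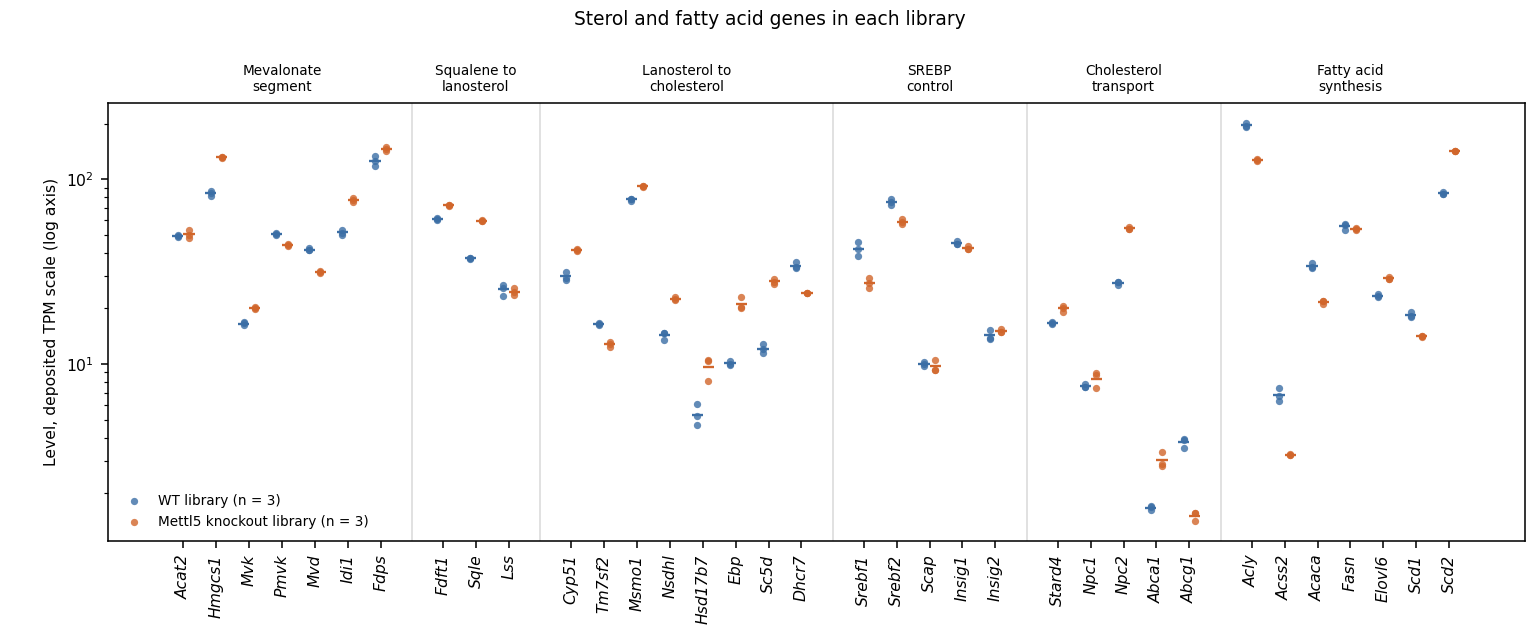
Level of each of the 35 genes in every library, on the deposited TPM scale (log axis), grouped by role; points are libraries and short lines are means of 3. The points of a genotype lie close together, and the genotypes are far apart for Sc5d, Ebp, Npc2, Abcg1 and Acss2.

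Genes on chromosomes 8 and 11 bear on 6 of these genes. The median log2 fold change was -0.38 over the 1218 tested genes of chromosome 8 and -0.41 over the 1787 of chromosome 11, with 53.6% and 57.5% of genes called lower. Mvd and Msmo1 are on chromosome 8, and Srebf1, Acly, Acaca and Fasn are on chromosome 11. Of these 6 genes, 1 was higher and 4 lower. On the other chromosomes 18 of 29 were higher and 7 lower, beside 47.7% and 32.3% of genes of any chromosome with a mean at least that of Scap. Values were therefore centred per chromosome in 2 ways. Level centring subtracted, in each library, the median log2 level of the chromosome's genes, and 16 of the 35 genes were then higher and 13 lower, beside 27% and 33.9% of all genes (60.9% in either direction). Deviation centring, chosen after seeing the data, subtracted the median of those genes' deviations from their own means, and 16 were then higher and 10 lower, beside 31.7% and 29% (60.7% in either direction). The 2 ways can differ, because the shift of a chromosome's median level need not equal the median change of its genes. Median log2 fold changes were 0.07 for chromosome 1 (Insig2), 0.09 for chromosome 14 (Fdft1) and 0.21 for chromosome 18 (Stard4 and Npc1). Level centring moved these genes by more than those medians. Where either way changed the call of 1 of the 35 genes, or turned or moved a called value by over 1.5 times, both values are given below. Under both ways the fatty acid synthesis genes had 3 higher and 4 lower, with a median of -0.20 for level and -0.18 for deviation centring. Reads of overlapping genes are a further limit, since no source states whether counting used strand. Mvd lies within Gm20388 on the opposite strand, Acss2 overlaps Gss on the opposite strand, and Fdps overlaps Gm43738 on the same strand.

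The mevalonate segment had 4 of 7 genes higher and 2 lower. This is near the 47.7% higher and 32.3% lower among the 12034 genes with a mean at least that of Scap. Hmgcs1 (ENSMUSG00000093930, GRCm38 chromosome 13, 119690379 to 119708260) encodes the enzyme that makes HMG-CoA. It was at 83.7, 86.7 and 81.6 in WT and at 131, 132 and 132 in knockout libraries. Every knockout library was above every WT library, a 1.57-fold difference in the mean level (log2 fold change 0.70, SE 0.0278, limma adjusted p 3.36e-08). Idi1, the isomerase of isopentenyl diphosphate, rose from 51.5 ± 1.73 to 77.2 ± 2.08 (SD, n = 3), a log2 fold change of 0.66. Idi1 shared 18.4% of its 31-base words with the processed pseudogene Gm13502, which was listed at a mean of 22 in WT and 28.8 in knockout libraries, so the split of its reads is uncertain. Mevalonate kinase, Mvk, rose from 16.5 ± 0.318 to 20.2 ± 0.294 (SD, n = 3), and its log2 fold change of 0.35 was 0.14 after level and 0.26 after deviation centring, called in both. Fdps, the farnesyl diphosphate synthase and the gene of the segment with the highest level, was at 134, 119 and 125 in WT and at 149.8, 143 and 146 in knockout libraries. The groups did not overlap. Its log2 fold change of 0.28 became 0.12 after level centring, still called, and 0.10 after deviation centring, where it was not called (limma adjusted p 0.07). Fdps shared 24.6% of its 31-base words with Gm43738, and Hmgcs1 shared 10.9% with its antisense gene Gm48342, both at mean levels under 1.

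The kinase and decarboxylase that follow Mvk were called lower. Phosphomevalonate kinase, Pmvk, fell from 50.4 ± 0.499 to 44.1 ± 0.63 (SD, n = 3), or by 0.13 on the log2 scale (limma adjusted p 0.00324). The log2 fold change was larger after centring, with -0.29 for level and -0.31 for deviation centring. Mvd, the mevalonate diphosphate decarboxylase, was at 42.5, 41.1 and 41.2 in WT and at 31.27, 31.01 and 31.75 in knockout libraries. Its log2 fold change of -0.35 lay close to the median of chromosome 8 and lost its call after level centring (0.02, limma adjusted p 0.61) and deviation centring (0.01, limma adjusted p 0.813). Acat2, the cytosolic thiolase at the entry of the chain, was at 49.4 ± 0.741 and 50.3 ± 2.36 (SD, n = 3). The groups overlapped, and the 95% interval of its log2 fold change ran from -0.0042 to 0.16. Acat2 also shared 43.7% of its 31-base words with Acat3 and 13.2% with Tcp1, so the split of its reads is uncertain.

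RefSeq promoters (GRCm38.p6) were matched for 27 of the 35 genes, taking the listed start nearest to the GENCODE gene start. None was matched for Fdps, Fdft1, Sqle, Stard4, Npc1, Abcg1, Scd1 or Scd2. The start used for Acaca lay 65766 bases from its gene start. Exons of the gene covered 250 bases of the Tm7sf2 window and 214 of the Msmo1 window, and these 3 genes are kept in the counts. The 250 bases upstream were searched on both strands for the sterol regulatory element bound by SREBPs (TCACNCCAC) and the CCAAT box bound by NF-Y (CCAAT). The E-box (CACGTG) and the GC box bound by Sp1 (GGGCGG) were searched in the same way. Only Hmgcs1 held an exact match to the sterol regulatory element, 1 of 27 genes (3.7%) beside 1.01% of 14816 promoters. A CCAAT box was present in 20 of 27 (74.1%), beside 35.8% of all promoters, and a GC box in 20 of 27 (74.1%), beside 51.1%. An E-box was present in 4 of 27 (14.8%), beside 7.63%. The shares over all promoters include genes at low levels, and no share at matched levels was computed. Matches to a CCAAT box stood in 11 of 13 promoters of genes that were higher, in 6 of 9 of genes that were lower and in 3 of 5 of genes not called. A match describes the letters of the window and shows no binding. Only exact matches were searched, so a window without one may still hold a variant of the element, and sites further away were not searched. The promoters of Hmgcs1, with the only sterol regulatory element, of Mvk, with the most CCAAT boxes, and of Mvd, which was lower, are shown 5′ to 3′ on the sense strand of the gene. Capitals mark sterol regulatory elements and CCAAT boxes, the latter read as ATTGG where they lie on the other strand.
Hmgcs1 (chr13:119690101-119690350, plus strand): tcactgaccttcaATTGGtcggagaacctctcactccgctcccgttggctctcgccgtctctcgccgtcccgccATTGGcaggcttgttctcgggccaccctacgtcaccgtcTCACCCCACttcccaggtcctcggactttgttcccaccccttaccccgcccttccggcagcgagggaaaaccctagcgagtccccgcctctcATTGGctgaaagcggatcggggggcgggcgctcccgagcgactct
Mvk (chr5:114444019-114444268, plus strand): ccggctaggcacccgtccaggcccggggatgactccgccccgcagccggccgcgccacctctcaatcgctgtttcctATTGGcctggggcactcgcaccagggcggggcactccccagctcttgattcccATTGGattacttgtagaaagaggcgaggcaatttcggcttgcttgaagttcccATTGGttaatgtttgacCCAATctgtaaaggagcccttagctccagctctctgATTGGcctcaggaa
Mvd (chr8:122443423-122443672, minus strand): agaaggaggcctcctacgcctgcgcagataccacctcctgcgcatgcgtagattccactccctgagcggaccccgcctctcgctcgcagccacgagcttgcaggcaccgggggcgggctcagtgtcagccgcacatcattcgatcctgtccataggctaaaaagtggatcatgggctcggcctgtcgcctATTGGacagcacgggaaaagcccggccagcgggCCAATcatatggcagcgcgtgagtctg
In Hmgcs1 the sterol regulatory element lay 137 to 129 bases upstream of the start, between CCAAT boxes. Mvk held 5 CCAAT boxes, 4 of them on the other strand. Mvd held 2 CCAAT boxes, 1 on each strand.

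**Figure D2:**
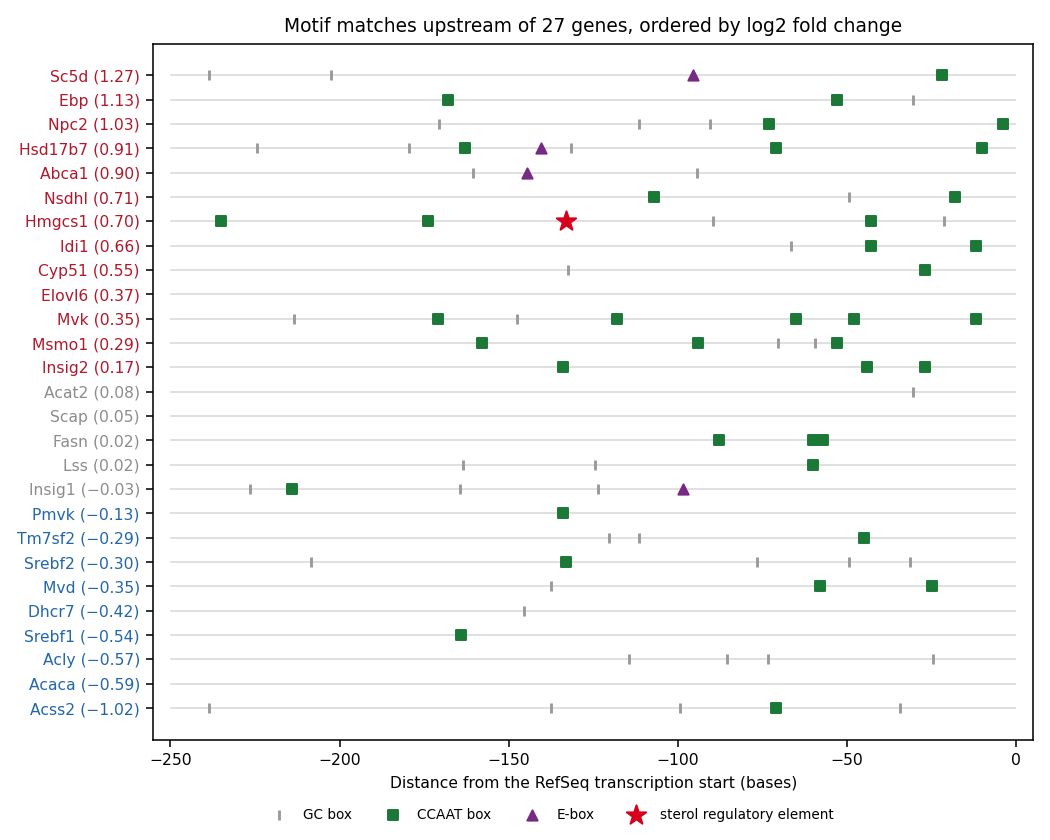
Matches to 4 motifs in the 250 bases upstream of the RefSeq start of 27 genes; the x axis is the distance from the start in bases, and genes are ordered by log2 fold change (in brackets), with red names for higher, blue for lower and grey for not called. CCAAT boxes appear from top to bottom of the order, and the single exact match to the sterol regulatory element is in Hmgcs1.

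In the step from farnesyl diphosphate to lanosterol, 2 of 3 genes were higher and none was lower. Among the 12034 genes with a mean at least that of Scap, 47.7% were higher and 32.3% lower. Sqle, the squalene epoxidase and a rate-limiting enzyme of the pathway (ENSMUSG00000022351, chromosome 15, 59315077 to 59331192), was at 37.2, 37.4 and 37.4 in WT and at 60.0, 59.1 and 59.4 in knockout libraries. The genotypes differed by 1.59-fold, far more than libraries of a genotype did (log2 fold change 0.72, SE 0.0238, limma adjusted p 1.01e-08). Squalene synthase, Fdft1, rose less, from 60.7 ± 0.654 to 72.0 ± 0.709 (SD, n = 3; log2 fold change 0.30). Level centring ended this call and turned the sign (-0.0028, limma adjusted p 0.951), leaving 1 gene of the segment higher and 1 lower, while deviation centring gave 0.19, still called. Fdft1 shared 17.6% of its 31-base words with its neighbour Ctsb, which lies on the opposite strand and had a mean level of 30.9 in WT and 46.5 in knockout libraries. Lss, the lanosterol synthase that acts right after Sqle, was at 23.4, 26.6 and 25.8 in WT and at 23.6, 25.8 and 24.6 in knockout libraries. These overlapped, with a 95% interval of the log2 fold change of -0.10 to 0.13, and Lss was called lower at equal totals (-0.14) and after level centring (-0.14) but not after deviation centring (-0.10).

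The conversion of lanosterol to cholesterol held the largest rises of the sterol chain, with 6 of 8 genes higher and 2 lower (median log2 fold change 0.63). As scaled, 47.7% of the 12034 genes with a mean at least that of Scap were higher and 32.3% lower. The counts of 6 and 2 were the same at equal totals, in the TPM column and with both ways of centring per chromosome. Sc5d, which introduces a double bond into the sterol ring (ENSMUSG00000032018, GRCm38 chromosome 9, 42251595 to 42264256), was at 12.04, 11.42 and 12.85 in WT and at 28.97, 27.23 and 27.79 in knockout libraries. This was the largest rise among the 35 genes, 2.31-fold on the TPM scale (log2 fold change 1.27, SE 0.0487, limma adjusted p 2.75e-08). Ebp, the isomerase that moves a double bond within the ring (ENSMUSG00000031168, chromosome X, 8185329 to 8193512), was at 9.99, 9.83 and 10.4 in WT and at 20.2, 22.9 and 20.2 in knockout libraries. No library of one genotype came near the other, and the log2 fold change was 1.13 (SE 0.0622). Hsd17b7, a ketoreductase of the demethylation complex, was the least even of the group, at 4.67, 5.22 and 6.10 in WT and 8.05, 10.5 and 10.4 in knockout libraries. It nevertheless did not overlap between genotypes (log2 fold change 0.91, SE 0.124, limma adjusted p 0.000148).

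Nsdhl, the dehydrogenase of the same complex, rose from 14.3 ± 0.76 to 22.5 ± 0.429, and Cyp51, the lanosterol demethylase, from 29.8 ± 1.47 to 41.4 ± 0.68 (SD, n = 3). The log2 fold change of Cyp51 was 0.55, or 0.34 after level and 0.46 after deviation centring. Msmo1, the methyl oxidase of the complex, rose from 77.6 ± 0.885 to 91.3 ± 0.428 (SD, n = 3; log2 fold change 0.29), and its change was 0.67 after level and 0.66 after deviation centring. The 3 genes of the demethylation complex thus rose together. The reductases did not follow. Dhcr7, which makes cholesterol from 7-dehydrocholesterol, was at 35.8, 33.1 and 33.4 in WT and at 24.2, 24.1 and 24.1 in knockout libraries. Its 3 knockout values were nearly equal and all lay under the WT range (log2 fold change -0.42, SE 0.0421, limma adjusted p 1.75e-05). Tm7sf2, a sterol reductase acting after Cyp51, fell from 16.4 ± 0.136 to 12.8 ± 0.341 (SD, n = 3; log2 fold change -0.29, or -0.51 after level and -0.39 after deviation centring). Tm7sf2 shared 10.7% of its 31-base words with Vps51, which overlaps it on the same strand. The upstream sequences of the 3 largest rises of the sterol chain whose window held no GENCODE exon, Sc5d, Ebp and Nsdhl, are shown with the same marking.
Sc5d (chr9:42264301-42264550, minus strand): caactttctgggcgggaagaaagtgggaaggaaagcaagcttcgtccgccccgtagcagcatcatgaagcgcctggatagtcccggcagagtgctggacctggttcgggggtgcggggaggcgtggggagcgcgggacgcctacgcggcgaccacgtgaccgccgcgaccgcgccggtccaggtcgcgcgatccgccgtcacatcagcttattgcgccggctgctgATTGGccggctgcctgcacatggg
Ebp (chrX:8193513-8193762, minus strand): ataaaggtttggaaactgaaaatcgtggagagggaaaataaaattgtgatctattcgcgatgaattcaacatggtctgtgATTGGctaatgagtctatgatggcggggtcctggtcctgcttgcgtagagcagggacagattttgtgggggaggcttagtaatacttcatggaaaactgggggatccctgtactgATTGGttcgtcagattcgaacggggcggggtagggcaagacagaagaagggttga
Nsdhl (chrX:72918271-72918520, plus strand): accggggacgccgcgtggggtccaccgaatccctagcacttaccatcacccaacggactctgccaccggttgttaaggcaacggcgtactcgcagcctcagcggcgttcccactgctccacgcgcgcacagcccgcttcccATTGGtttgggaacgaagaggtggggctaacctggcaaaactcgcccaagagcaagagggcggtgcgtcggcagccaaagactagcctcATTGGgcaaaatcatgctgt
Each held at least 1 CCAAT box and none held an exact match to the sterol regulatory element.

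**Figure D3:**
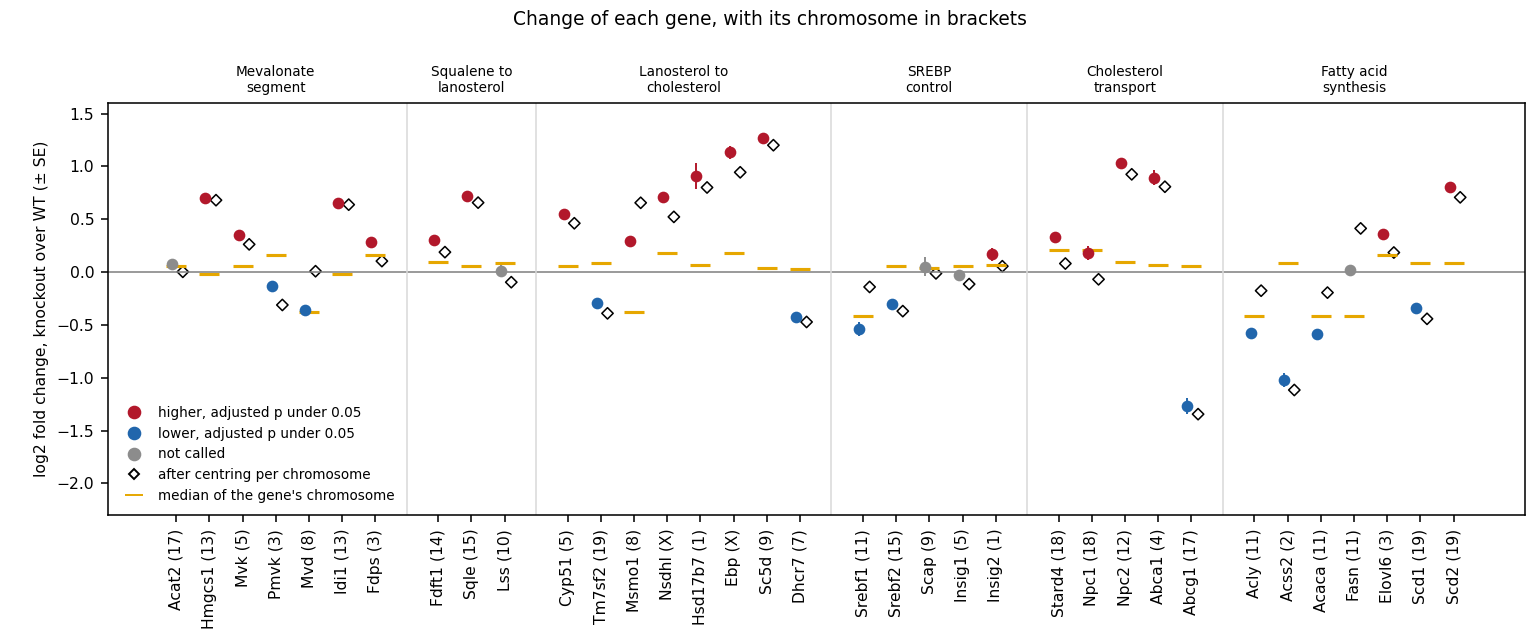
Log2 fold change of each gene, knockout over WT, with its SE (filled circles), after deviation centring per chromosome (open diamonds) and the median of the gene's chromosome (bars), grouped by role with the chromosome in brackets. The 6 genes from lanosterol to cholesterol that were higher are red, for higher; Mvd and Srebf1 lie near the bar of their chromosome.

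Among the genes that control the pathway, neither SREBP gene rose. Srebf2, the main factor of the sterol enzymes (ENSMUSG00000022463, chromosome 15, 82147181 to 82205379), was at 72.5, 75.0 and 78.4 in WT and at 56.9, 58.8 and 60.7 in knockout libraries. The ranges were well apart, and Srebf2 fell by 0.30 on the log2 scale (SE 0.0364, limma adjusted p 6.37e-05). It was at -0.35 after level and -0.37 after deviation centring. Srebf1 was at 45.7, 38.3 and 41.9 in WT and at 29.2, 25.8 and 27.5 in knockout libraries, again without overlap. It fell by 0.54 on the log2 scale (SE 0.0686), but it was not called after level centring (-0.17, limma adjusted p 0.0547) or deviation centring (-0.14, limma adjusted p 0.1). The ratio of Srebf2 to Srebf1 was 1.81 ± 0.194 in WT and 2.15 ± 0.177 in knockout libraries (SD, n = 3), and the values overlapped. Scap, which shared 11.3% of its 31-base words with a transcript on the opposite strand, was at 9.94, 10.3 and 9.78 in WT and at 9.25, 9.32 and 10.5 in knockout libraries, with a 95% interval of its log2 fold change of -0.15 to 0.25.

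Insig1, itself a target of SREBPs, was at 44.4, 44.7 and 46.0 in WT and at 43.5, 42.0 and 42.1 in knockout libraries. The 3 knockout values were slightly lower, but the log2 fold change of -0.03 was not called (95% interval -0.09 to 0.04). It was called lower at equal totals (-0.18), in the TPM column (-0.08) and after level (-0.24) and deviation centring (-0.11). Insig2, which is controlled by other factors, was at 14.3 ± 0.818 and 15.04 ± 0.319 (SD, n = 3), with overlapping libraries. Its log2 fold change of 0.17 just passed the threshold (limma adjusted p 0.0442). The call was lost at equal totals (0.01), after level (-0.13) and deviation centring (0.06) and without WT replicate 2 or 3 or any knockout replicate (adjusted p 0.0794 to 0.112). The 5 control genes together summed to 187 ± 4.0 in WT and 154 ± 2.59 in knockout libraries (SD, n = 3). This sum pools SREBP and Insig genes, whose roles are opposed, so its direction says nothing about control of the pathway. Most of its fall came from Srebf2 (mean 75.3 to 58.8) and Srebf1 (42.0 to 27.5), and Srebf1 was not called after centring. The 18 enzymes of the sterol chain summed to 743 ± 8.6 in WT and 908 ± 3.18 in knockout libraries (SD, n = 3).

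The transport genes had 4 of 5 higher and 1 lower (median log2 fold change 0.33), beside 47.7% and 32.3% of genes with a mean at least that of Scap. After level centring 2 were higher and 3 lower, which turned the median to -0.29, and after deviation centring 2 were higher and 1 lower (median 0.08). NPC1 and NPC2 move cholesterol out of the lysosome together. Npc2, the soluble partner (ENSMUSG00000021242, chromosome 12, 84754562 to 84773152), was at 26.9, 27.8 and 27.8 in WT and at 55.4, 53.6 and 53.9 in knockout libraries. That 1.98-fold difference was far larger than the spread of the libraries (log2 fold change 1.03, SE 0.0283, limma adjusted p 3.18e-09). Npc1, the membrane partner, was at 7.80, 7.55 and 7.51 in WT and at 7.43, 8.70 and 8.91 in knockout libraries. Knockout replicate 1 lay below all WT libraries, and the call (log2 fold change 0.18, limma adjusted p 0.0398) was lost without any single WT replicate or without knockout replicate 2 or 3 (adjusted p 0.0606 to 0.146). It was also lost at equal totals (0.02) and after deviation centring (-0.07), and level centring turned it to a call in the other direction (-0.44, limma adjusted p 0.000292). The ratio of Npc1 to Npc2 went from 0.277 ± 0.0109 to 0.154 ± 0.0172 (SD, n = 3).

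The sterol exporters were the genes with the lowest levels and moved in opposite directions. Abca1, which loads cholesterol onto apolipoproteins, was at 1.70, 1.68 and 1.62 in WT and at 2.87, 3.35 and 2.82 in knockout libraries. Abcg1, which exports sterols to lipoprotein particles (ENSMUSG00000024030, chromosome 17, 31057675 to 31117988), was at 3.87, 3.53 and 3.93 in WT and at 1.56, 1.41 and 1.55 in knockout libraries. Both are known targets of LXR, and the log2 fold changes were 0.90 (SE 0.0682) and -1.27 (SE 0.0728, the largest fall of the 35 genes). Their ratio rose from 0.443 ± 0.0305 to 2.01 ± 0.317 (SD, n = 3), so that the gene with the higher level changed with the genotype. Stard4, a carrier of cholesterol between membranes, rose from 16.6 ± 0.134 to 19.98 ± 0.669 (SD, n = 3; log2 fold change 0.33), but was called lower after level centring (-0.29, limma adjusted p 0.00102) and not called after deviation centring (0.08, limma adjusted p 0.119). On its chromosome 18, level centring moved values by more than the median log2 fold change of the chromosome's genes (0.21).

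Fatty acid synthesis showed falls at its first steps. Acly, which splits citrate to acetyl-CoA and had the highest level of the 35 genes in WT, was at 202, 191 and 195 in WT and at 127, 125 and 129 in knockout libraries. Acss2, which makes acetyl-CoA from acetate (ENSMUSG00000027605, chromosome 2, 155517948 to 155585724), was at 7.41, 6.32 and 6.75 in WT and at 3.20, 3.21 and 3.25 in knockout libraries. Both sources of acetyl-CoA were lower without overlap, Acly by a log2 fold change of -0.57 and Acss2 by one of -1.02 (SE 0.0647, limma adjusted p 7.58e-07). Acaca, which makes malonyl-CoA, was at 33.4, 35.4 and 33.2 in WT and at 21.2, 21.8 and 21.9 in knockout libraries (log2 fold change -0.59). Acly and Acaca are on chromosome 11 and their changes were -0.20 and -0.22 after level and -0.18 and -0.19 after deviation centring, called in each, whereas Acss2, on chromosome 2, was at -1.17 and -1.12. Acaca shared 31.7% of its 31-base words with the processed pseudogene Gm5182, whose own mean level was 1.89 in WT and 1.33 in knockout libraries.

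Fasn, the fatty acid synthase, was at 57.0, 53.2 and 56.4 in WT and at 54.5, 52.9 and 53.4 in knockout libraries. The groups overlapped, and the 95% interval of its log2 fold change was -0.06 to 0.10. Fasn was called lower at equal totals (-0.14) and higher after level (0.39) and deviation centring (0.41, limma adjusted p 6.75e-06), so its direction depends on the reference. Elovl6, which lengthens palmitate, rose from 23.4 ± 0.357 to 29.1 ± 0.488 (SD, n = 3; log2 fold change 0.37, or 0.20 after level and 0.19 after deviation centring). The stearoyl-CoA desaturases, which place the double bond of monounsaturated fatty acids, are neighbours on chromosome 19 and moved apart. Scd2 was at 85.57, 83.05 and 83.29 in WT and at 142.4, 141.5 and 142.5 in knockout libraries. Scd1, at a lower level, was at 19.15, 18.26 and 18.05 in WT and at 14.17, 13.96 and 14.15 in knockout libraries. Neither overlapped between genotypes (log2 fold change 0.81, SE 0.023 for Scd2, and -0.34, SE 0.0308 for Scd1). Scd1 was at -0.56 after level and -0.44 after deviation centring. They shared little sequence, 5.18% of the 31-base words of Scd1 being found in Scd2. The 250 bases upstream of Fasn are shown because its CCAAT boxes include a pair that overlaps by 2 bases on opposite strands.
Fasn (chr11:120824548-120824797, minus strand): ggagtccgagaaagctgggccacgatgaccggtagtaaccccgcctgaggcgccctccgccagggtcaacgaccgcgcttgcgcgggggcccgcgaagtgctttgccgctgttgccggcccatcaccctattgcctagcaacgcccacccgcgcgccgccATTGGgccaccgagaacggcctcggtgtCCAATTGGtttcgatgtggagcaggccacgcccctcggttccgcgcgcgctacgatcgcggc
Fasn held 3 CCAAT boxes, as many as Hmgcs1, and no exact match to the sterol regulatory element in these 250 bases.

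Ratios between 2 genes of the same library do not depend on how libraries were scaled, but they do depend on centring per chromosome when the genes lie on different chromosomes. Of 10 ratios compared, 8 did not overlap between genotypes. Among all single genes tested, 68.1% did not overlap on the TPM scale, and no such share was computed for other pairs of genes. The count of 8 is therefore not read as a trait of these pairs. The exact two-sided permutation test cannot go below 0.1 with 3 libraries against 3, and each of these 8 reached p = 0.1 (0.125 after Benjamini-Hochberg adjustment over the 10). Sc5d and Dhcr7 act one after the other at the end of the chain, and their ratio went from 0.356 ± 0.0261 to 1.16 ± 0.0351 (SD, n = 3). Sqle to Lss went from 1.48 ± 0.094 to 2.42 ± 0.128, and Hmgcs1 to Fasn from 1.52 ± 0.1 to 2.46 ± 0.0522 (SD, n = 3). The log2 difference of Hmgcs1 to Fasn, 0.70, was 0.14 after level and 0.27 after deviation centring, Fasn being on chromosome 11. Scd1 to Scd2 fell from 0.22 ± 0.00353 to 0.0992 ± 0.000464 (SD, n = 3). Acly to Acss2 was 28.8 ± 1.56 and 39.4 ± 0.504 (SD, n = 3), a log2 difference of 0.45 that became 0.97 after level and 0.94 after deviation centring. Insig1 to Insig2 was 3.16 ± 0.224 and 2.83 ± 0.00393 (SD, n = 3). Fdft1 to Fdps, the enzymes on either side of farnesyl diphosphate, was 0.483 ± 0.0273 and 0.493 ± 0.0163 (SD, n = 3), with overlapping libraries (exact permutation p = 0.6). The difference of Srebf2 to Srebf1, 0.25 on the log2 scale, turned to -0.18 after level and -0.23 after deviation centring.

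**Figure D4:**
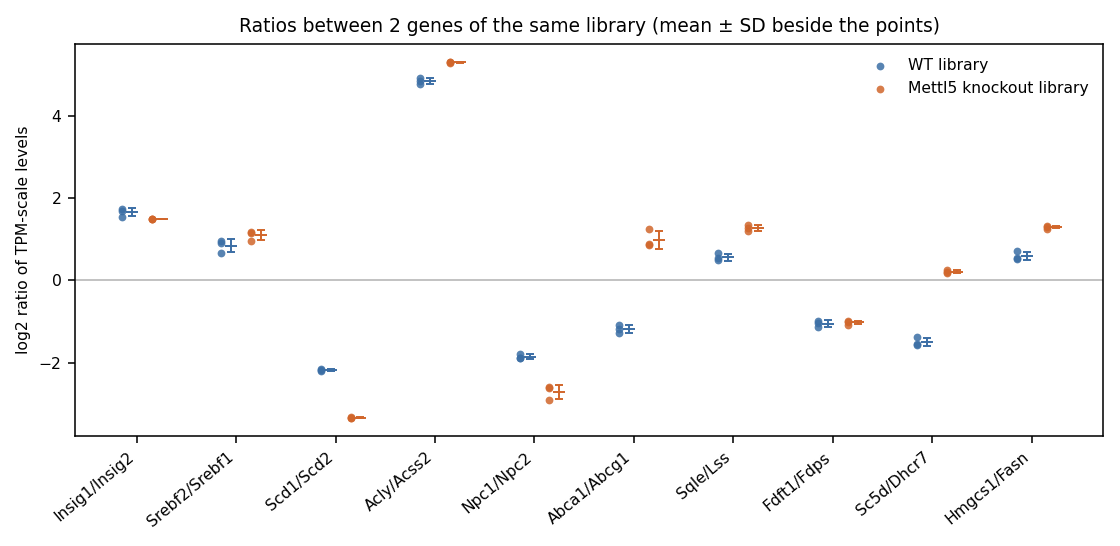
Log2 ratio of the TPM-scale levels of 2 genes in each library (points), with mean ± SD of 3 libraries beside them, WT in blue and knockout in orange. The Abca1 to Abcg1 and Sc5d to Dhcr7 ratios cross 0, the level at which the 2 genes are equal.

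Genes next to these pathways were examined by list. Over all genes tested, 33.6% were called higher and 28.9% lower, or 26.1% and 37.8% at equal totals. Among the 12034 genes with a mean at least that of Scap, the shares were 47.7% and 32.3%. In the 6 lists the share called higher ran from 33.3% (glycerolipid) to 66.7% (isoprenoid branches). The share called lower ran from 20.8% (glycerolipid) to 46.9% (further fatty acid genes). Other regulators of sterol metabolism had 12 of 20 genes higher and 5 lower (median log2 fold change 0.13), but 6 and 6 at equal totals (median -0.03). Nfyc, a subunit of NF-Y, rose from 32.3 ± 0.573 to 47.4 ± 1.19 (SD, n = 3; log2 fold change 0.62). The other subunits moved less. Nfyb had a log2 fold change of 0.15, not called at equal totals (-0.01) or after deviation centring (0.04), and Nfya was not called (0.05). Rnf145, a ubiquitin ligase of the sterol response, fell by 0.38 on the log2 scale, but was not called after level (-0.01) or deviation centring (0.01) on chromosome 11. In other genes of sterol uptake, esterification and oxidation, 15 of 31 were higher and 13 lower (median 0.07, and -0.08 at equal totals). Both enzymes that esterify cholesterol for storage changed: Soat1 rose from 16.8 ± 0.321 to 36.2 ± 0.88, and Soat2 fell from 3.15 ± 0.223 to 0.632 ± 0.0689 (SD, n = 3). Their log2 fold changes were 1.18 (SE 0.041) and -2.25 (SE 0.109, limma adjusted p 1.27e-07). The isoprenoid branches, which draw on farnesyl diphosphate, had 14 of 21 higher and 5 lower (median 0.25), and 10 and 5 at equal totals. Zmpste24, the protease that processes prenylated prelamin A, rose by 0.90, and Fnta, a farnesyltransferase subunit on chromosome 8, was at -0.42 and lost its call after level (-0.04) and deviation centring (-0.06, limma adjusted p 0.0791).

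Further genes of fatty acid synthesis, elongation and activation went both ways, 15 of 32 higher and 15 lower (median 0.07, and -0.08 at equal totals). Elovl1, an elongase of very long chains, rose from 15.3 ± 0.15 to 30.3 ± 0.217, and Fabp3, a fatty acid binding protein, fell from 312 ± 10.8 to 169 ± 3.44 (SD, n = 3). Glycerolipid genes had 8 of 24 higher and 5 lower (median 0.06), which became 5 and 11 at equal totals (median -0.09). Plin2, which coats lipid droplets, was at 12.49, 12.01 and 12.64 in WT and at 51.8, 51.8 and 52.1 in knockout libraries (log2 fold change 2.14, SE 0.0423, limma adjusted p 4.31e-10). Agpat5, an acyltransferase on chromosome 8, was at -0.41 and lost its call after level (-0.04) and deviation centring (-0.05, limma adjusted p 0.318). Fatty acid oxidation genes had 11 of 28 higher and 12 lower (median -0.13), and 7 and 15 at equal totals. Cpt1a, which brings fatty acids to the mitochondrion, fell from 11.2 ± 0.0935 to 4.38 ± 0.17 (SD, n = 3; log2 fold change -1.31), while its relative Cpt1c rose by 0.59. The leading genes of the marker lists were Dppa5a (0.31) and Zfp42 (-1.24) for stem cells, Fbn1 (1.84) and Thy1 (-1.07) for fibroblasts, Apob (0.94) and Cubn (-3.76) for visceral endoderm and Csf1r (2.28) for macrophages. Levels were very low for Csf1r (means of 0.0305 in WT and 0.154 in knockout libraries) and Apob (0.114 and 0.212). Any relation of these markers to the genes above was not tested.

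**Figure D5:**
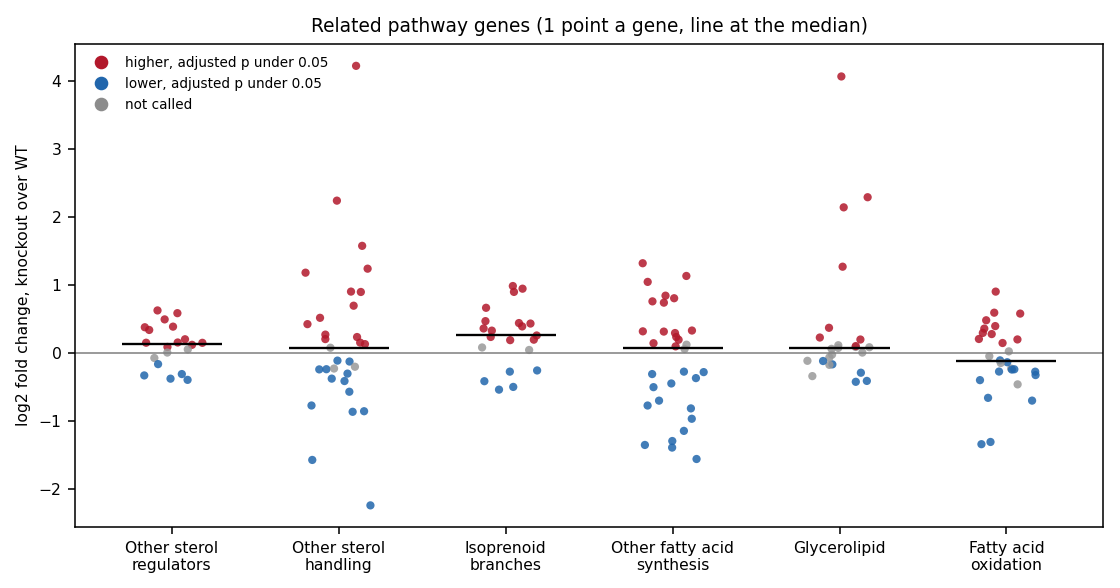
Log2 fold change, knockout over WT, of genes in 6 related pathway lists (1 point a gene; red higher, blue lower, grey not called; line at the median). The medians lie between -0.13 and 0.25, while single genes such as Plin2 and Soat2 lie more than 2 away from 0.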

How the data were processed

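The authors deposited 1 table of 24191 Ensembl genes in 6 libraries with 2 signal columns, scaled reads and TPM, as named per the file headers. kallisto, sleuth and mm10 are named per the submitters' processing notes; no source used here gives their versions, the annotation or whether counting used strand, though the kit keeps it. The deposited scaled reads were not whole: within 0.02 of a multiple of the library's step lay only 29.7% to 32.8% of values (those from 0.5 to 40), so no count test was run. The deposited TPM signal summed to 969838 to 1022473 and was used for levels. Libraries were grouped by title. The labels give polyA RNA, 0.1 µg, in fragments of 100 nt.

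The test was limma 3.58.1 (R 4.3.3) on log2(scaled reads + 1), its prior variance following the mean level, over genes averaging 1 scaled read or more. It was tested on simulated data. Alternatives were equal totals, the TPM column, centring per chromosome, other filters and pseudocounts, no trend, a replicate block and leaving out each library. Replicates of a genotype differed by more than counting noise (chi-square per degree of freedom 2.95 to 7.02). GENCODE M21 (GRCm38, that is mm10) named 23846 identifiers. Words of 31 bases shared with other GENCODE transcripts, on either strand, marked uncertain read assignment; 8 genes shared at least 10%. Tables used Python 3.11.15, pandas 2.3.3, scipy 1.17.1 and matplotlib 3.10.9.

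The members and lists were chosen with earlier results of these data known. The naming rule takes Mettl5, all 35 genes and, in each other list, the called gene with the smallest p in each direction. Nfya and Nfyb are named in addition, as the other subunits of NF-Y.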

Additional observations from a re-analysis of the deposited data

How the results depend on the processing

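Over the alternatives the 35 genes gave 16 to 19 higher and 10 to 14 lower calls, and leaving out single libraries gave 17 to 18 higher and 11 lower. Their median log2 fold change of 0.18 became 0.023 at equal totals, 0.11 in the TPM column, 0.025 with levels centred per chromosome and 0.081 with deviations centred, and ran from 0.17 to 0.26 when libraries were left out. By construction, equal totals and centring move all genes of a library or chromosome together. Signs turned at equal totals for Acat2 (-0.077), Lss (-0.14), Scap (-0.10) and Fasn (-0.14), and in the TPM column for Lss (-0.035), Scap (-0.042) and Fasn (-0.049). They turned with levels centred per chromosome for Acat2 (-0.11), Mvd (0.025), Fdft1 (-0.0028), Lss (-0.14), Insig2 (-0.13), Stard4 (-0.29) and Npc1 (-0.44). With deviations centred they turned for Mvd (0.0087), Lss (-0.10), Scap (-0.012), Npc1 (-0.068) and Rnf145 (0.014). Leaving out WT replicate 1 or knockout replicate 2 turned Lss (range -0.039 to 0.055), WT replicate 2 Fasn (-0.015 to 0.035) and knockout replicate 3 Scap (-0.012 to 0.091). The Fdft1 to Fdps difference of 0.03 on the log2 scale ran from -0.016, without WT replicate 1, to 0.065.

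Level centring turned the calls of Stard4 and Npc1 to lower and ended those of Fdft1, Mvd, Srebf1 and Insig2. For Stard4, Npc1, Fdft1 and Insig2 it moved the value by more than the median log2 fold change of their chromosomes. Log2 differences of ratios after level and deviation centring were -0.18 and -0.23 for Srebf2 to Srebf1, 0.97 and 0.94 for Acly to Acss2, -1.27 and -0.99 for Npc1 to Npc2, and 0.14 and 0.27 for Hmgcs1 to Fasn. With level centring Sqle to Lss was 0.82, Sc5d to Dhcr7 1.87 and Fdft1 to Fdps -0.13. Centred ratios were added after seeing the data.

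Other sterol regulators had 12 higher genes, 6 at equal totals and 7 with levels centred, and 5 lower, 3 with deviations centred; without single libraries 8 to 11 were higher. Glycerolipid genes had 8 higher and 5 lower, 5 and 11 at equal totals and 5 and 9 with levels centred; fatty acid oxidation genes had 11 higher, 7 at equal totals. Over all genes tested 33.6% were higher as scaled, 26.1% at equal totals and 27% with levels centred, and 28.9%, 37.8% and 33.9% were lower. The cause of these shifts was not tested beyond that construction. Filters and pseudocounts changed no call of the 35 genes, and dropping the trend removed that of Npc1. Same-numbered libraries showed little common deviation over all genes tested (correlations 0.0066, 0.0108 and 0.0316). Those of different numbers ran from -0.0236 to 0.0148. The numbers were therefore not used as pairs in the main fit, and a shared batch was not tested further. The replicate block gave 19 higher and 11 lower, calling Acat2 (adjusted p 0.0422) and losing Insig2 (0.0562). Acat2 was also called higher without knockout replicate 2 (adjusted p 0.0376). Depth did not limit the 35 genes, the lowest value being 165 scaled reads.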

Other observations

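Several lipid genes outside the naming rule were chosen after their values were seen. Gpat3, which starts triglyceride synthesis, was at 0.24, 0.211 and 0.2 in WT and at 3.62, 3.63 and 3.55 in knockout libraries (log2 fold change 4.07, SE 0.0975, limma adjusted p 1.36e-09). Mogat2, which makes diacylglycerol, rose from 0.722 ± 0.0195 to 3.46 ± 0.173 (SD, n = 3). Dgat1 and Dgat2, which complete triglyceride synthesis, were not called, with log2 fold changes of 0.07 (95% interval -0.07 to 0.22) and -0.34 (-0.68 to -0.0048, limma adjusted p 0.0725); Dgat2 was called lower at equal totals (-0.50). Osbpl5, an oxysterol-binding protein, rose from 1.21 ± 0.0477 to 5.56 ± 0.413 (SD, n = 3).

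Mlxipl, which encodes ChREBP, was at 8.03, 7.27 and 8.05 in WT and at 3.01, 2.04 and 2.65 in knockout libraries (log2 fold change -1.56). Thrsp, a lipogenic gene, fell from 2.04 ± 0.126 to 0.758 ± 0.0506, and Acacb, the mitochondrial acetyl-CoA carboxylase, from 8.0 ± 0.478 to 3.94 ± 0.0726 (SD, n = 3). The fatty acid activating enzymes Acsl1 (chromosome 8) and Acsl6 (chromosome 11) had log2 fold changes of -1.15 and -1.30 and Acsl3 and Acsl5 of 0.80 and 0.76, so members of 1 family went both ways. Ch25h, which makes an oxysterol, was listed at 0 in WT libraries 2 and 3 and at 0.319, 0.37 and 0.491 in knockout libraries.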
